A study of Mus musculus with 7 samples.

Results

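Heat shock chaperones are described here through 10 genes, Hspa1a, Hspa1b, Hspa5, Hspa8, Hsph1, Hsp90aa1, Hsp90ab1, Dnajb1, Hspd1 and Hspe1, taken by symbol from a table of 45777 mouse genes. RNA sequencing had been done on mouse PBMCs (peripheral blood mononuclear cells, mainly lymphocytes and monocytes) at week 8 of serial blood collection. There were 7 groups of 1 library each. The group labelled Non was the control; the others were bled from 1 of 3 sites, FV (facial vein), RP (retro-orbital plexus) or TV (tail vein), each without ibuprofen, labelled Ibu (-), or with it, labelled Ibu (+). Ibuprofen inhibits the cyclooxygenases, the enzymes that make prostaglandins. The sources used here do not state the mice's strain, sex or age, the ibuprofen dose, how the Non mice were handled, or whether animals were pooled. The comparisons below ask how the level of these mRNAs differed with ibuprofen, with collection and between routes.

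Total counts were 47903611 to 63801032 per library. Levels are CPM, counts scaled by TMM, which sets libraries to a common size from the bulk of their genes. No marker gene searched for lymphocytes, monocytes, neutrophils, platelets or red cells was at 0 in any library, so the labelled cell types were present, and RNA of cells that a mononuclear preparation should lack was present too. A list of 14 erythroid genes, led by globins, took 47.5% to 72.8% of all counts. With 1 library a group there is no replicate spread: p-values come from a fit in which the 3 routes stand in for replicates, with 2 residual degrees of freedom, and differences between pairs of libraries have no test. In bulk RNA, fewer cells of a type and less RNA per cell cannot be told apart.

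The largest ibuprofen difference among the 10 genes was that of the inducible HSP70 pair. Summed counts of Hspa1a and Hspa1b gave 8.06, 4.43 and 12.1 CPM in FV, RP and TV without ibuprofen, and 2.68, 3.2 and 3.92 CPM in the same routes with it. Hspa5, the chaperone of the endoplasmic reticulum (ER), stood apart in 1 library, FV without ibuprofen, at 308 CPM against 127 to 180 CPM in the other 6. In CPM, Hsph1, Hsp90aa1 and Hsp90ab1 were lowest in FV with ibuprofen, as were Hspa1a, Hspa1b, Dnajb1 and Hspd1. The mitochondrial pair Hspd1 and Hspe1 varied least in CPM. No member passed an adjusted p of 0.05 in edgeR's quasi-likelihood test of ibuprofen, of collection against Non, or of any pair of routes.

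Chaperones hold unfolded proteins in solution and help them fold. HSP70 proteins bind short exposed stretches and let go in a cycle driven by ATP, with J proteins (such as the product of Dnajb1) starting the cycle and exchange factors (such as that of Hsph1) ending it; HSP90 then completes the folding of kinases and steroid receptors. In heat or other protein stress the factor HSF1 binds heat shock elements, inverted repeats of the letters GAA, and induces Hspa1a and Hspa1b. A separate response, the unfolded protein response, acts on genes of the ER such as Hspa5. White blood cells are known to raise heat shock genes in fever and on activation.

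**Figure D1:**
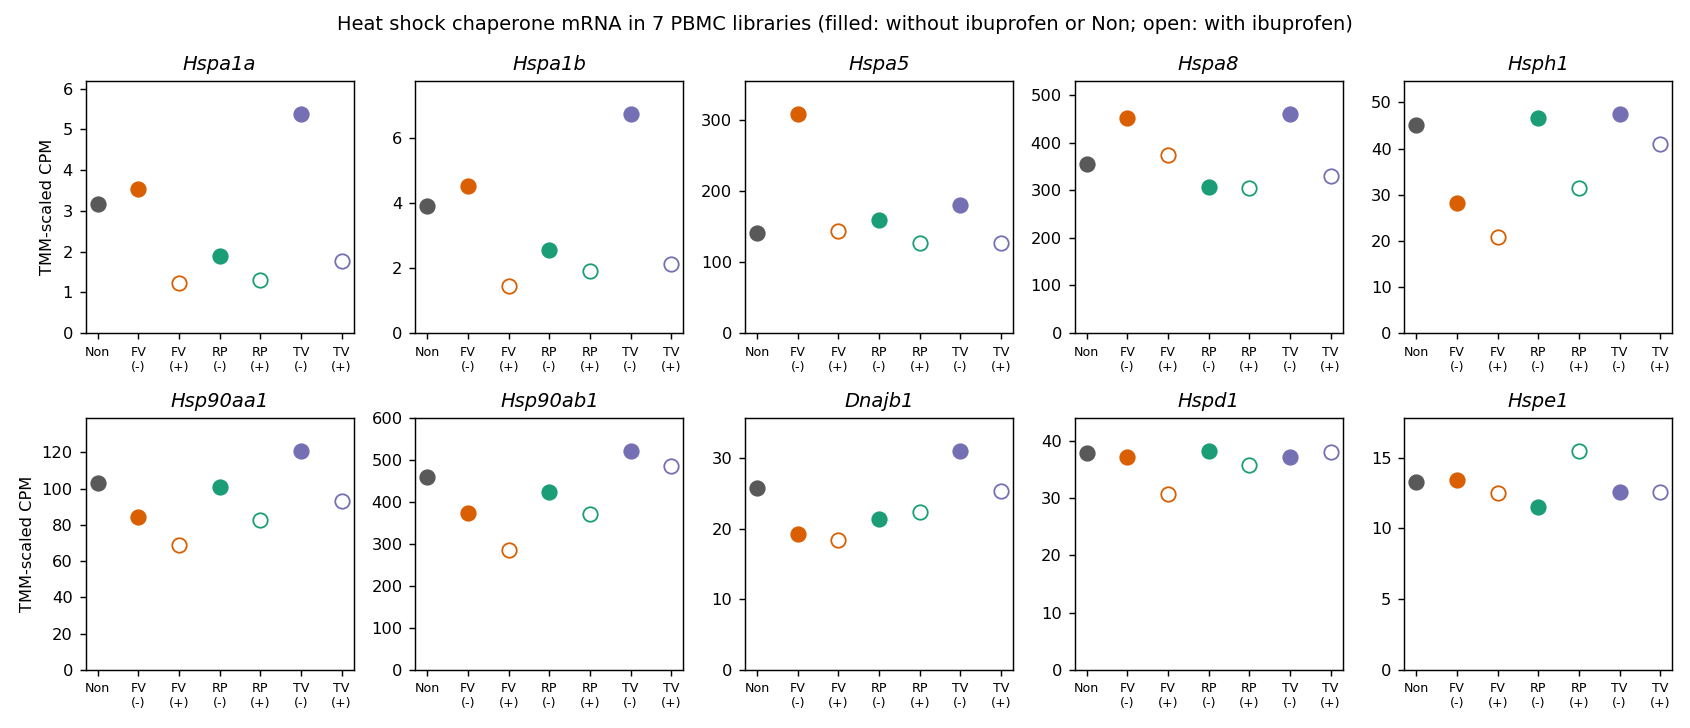
Level of each of the 10 chaperone mRNAs in TMM-scaled CPM (vertical axes, from 0) in the 7 libraries (horizontal axes); filled points are Non or without ibuprofen and open points with ibuprofen. The open points of Hspa1a and Hspa1b (1.24 to 2.13 CPM) lie below all filled points, and Hspa5 has 1 high point of 308 CPM in FV without ibuprofen.

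Per length, on the scale of deposited TPM, which corrects for transcript length, the most abundant members were Hspa8, with a mean level of 154 TPM over 7 libraries (90.2 to 222), and Hsp90ab1, with 141 TPM (85.7 to 185). These neighbours do not differ beyond their spread, since Hspa8 was the higher in 3 of 7 libraries. Hspa5 followed at 59.3 TPM and Hsp90aa1 at 28.1 TPM, each above the next gene in all 7 libraries. Hspe1 (15 TPM) and Hspd1 (13.6 TPM) were close, and Hspe1 was the higher in 6 libraries. Hsph1 (9 TPM) exceeded Dnajb1 (6.56 TPM) in 6 libraries. Hspa1b (0.946 TPM) and Hspa1a (0.747 TPM) were the least abundant. The order of variation in CPM was different: the highest library was 4.69 times the lowest for Hspa1b, 4.34 times for Hspa1a, 2.43 times for Hspa5, 2.28 times for Hsph1 and 1.24 times for Hspd1.

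Hspa1a (gene ID 193740, chr17:34969359-34972156, minus strand, build mm10) and Hspa1b (gene ID 15511, chr17:34956429-34959238, minus strand) encode the stress-inducible cytosolic HSP70. The genes lie 10120 bases apart and are near copies. Of all stretches of 100 bases in the Hspa1a transcript, 48.6% also occur in another gene, and 49.9% of those in Hspa1b, so the split of reads between them is uncertain and their sum is given as well. Their promoters are shown because the same letters lie in front of both. The windows of 300 bases lie across the start of transcription, most of them before it (RefSeq, GRCm38.p6, which is mm10), at chr17:34972107-34972406 and chr17:34959189-34959488, both on the minus strand, and the capitals mark a heat shock element of facing units, GAANNTTC.

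Hspa1a: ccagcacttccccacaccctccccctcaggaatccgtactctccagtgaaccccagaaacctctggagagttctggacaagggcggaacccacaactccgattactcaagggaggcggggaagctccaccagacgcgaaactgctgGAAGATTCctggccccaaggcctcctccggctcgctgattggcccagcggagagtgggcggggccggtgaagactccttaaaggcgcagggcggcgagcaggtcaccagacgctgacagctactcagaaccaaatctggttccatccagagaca

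Hspa1b: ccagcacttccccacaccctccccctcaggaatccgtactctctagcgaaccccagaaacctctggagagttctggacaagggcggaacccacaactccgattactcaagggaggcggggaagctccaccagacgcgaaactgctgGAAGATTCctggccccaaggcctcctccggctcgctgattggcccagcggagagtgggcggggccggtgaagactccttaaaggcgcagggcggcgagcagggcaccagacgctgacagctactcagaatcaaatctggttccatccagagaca

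The windows were identical at 296 of 300 bases. Counted from the first printed base, with the Hspa1a base first, the differences are C44T, T47C, T249G and C276T, and none falls in the capitals. The element begins 104 bases before the start of transcription in each. On both strands, GAANNTTC was found in 7.86% of 32851 promoter windows of the same length.

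Hspa1a stood at 3.16 CPM in Non, at 3.54, 1.88 and 5.38 CPM in FV, RP and TV without ibuprofen, and at 1.24, 1.3 and 1.78 CPM in FV, RP and TV with it. Hspa1b stood at 3.9 CPM in Non, at 4.52, 2.55 and 6.75 CPM without ibuprofen, and at 1.44, 1.9 and 2.13 CPM with it, in the same order of routes. For both genes, which share reads, the 3 libraries with ibuprofen were the lowest of the 7. They lay below the 3 collected without it, as in 2.68% of all genes tested. The nearest values were 1.78 and 1.88 CPM for Hspa1a and 2.13 and 2.55 CPM for Hspa1b. The share of all genes that also lay below Non was not computed. These levels are low, from 66 to 198 counts for Hspa1a and 94 to 253 for Hspa1b. The ratio of Hspa1b to Hspa1a counts lay between 1.16 and 1.47 in every library.

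For the sum of the pair, exact Poisson 95% intervals, which cover counting error only, were 6.38 to 7.79 CPM in Non and 11 to 13.4 CPM in TV without ibuprofen. The nearest libraries of the 2 kinds were RP without ibuprofen, with an interval of 3.97 to 4.92 CPM, and TV with ibuprofen, with 3.36 to 4.53 CPM, and these intervals overlap. Within a route, the sum with ibuprofen had an interval below that without it in all 3 routes. Against Hspa8, the HSP70 gene that is always on, the sum was 0.0178, 0.0144 and 0.0263 of the Hspa8 counts in FV, RP and TV without ibuprofen, and 0.00714, 0.0104 and 0.0118 with it. Non lay at 0.0199. This ratio needs no scaling between libraries, and the 3 libraries with ibuprofen were again the lowest.

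**Figure D2:**
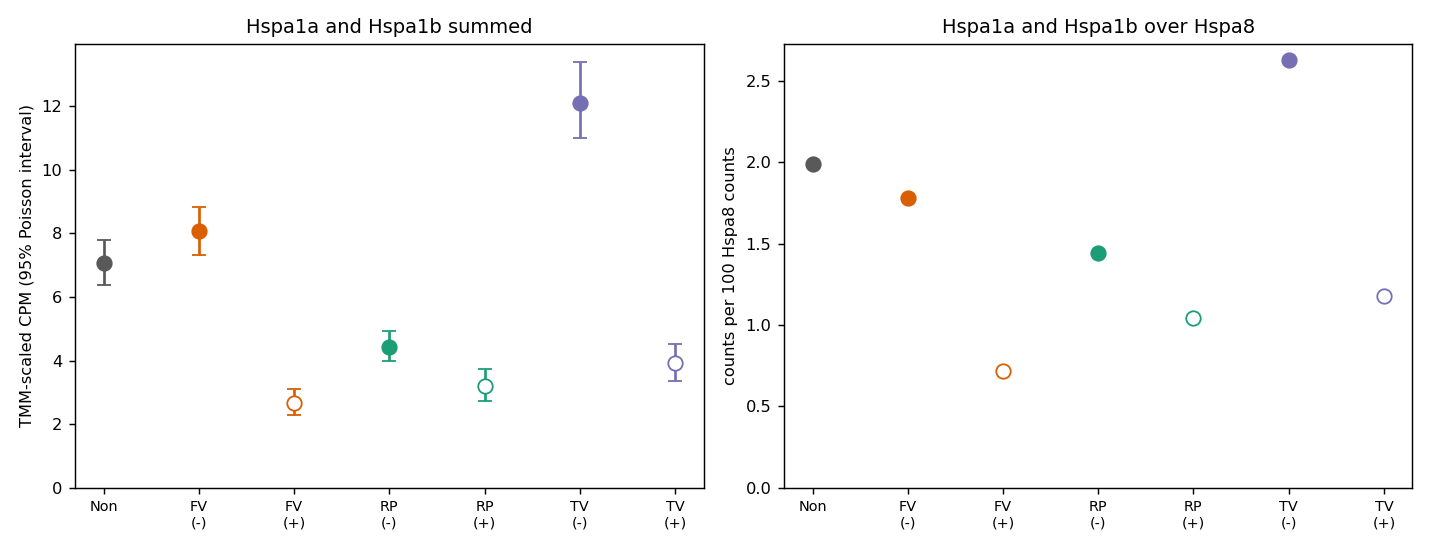
Left, Hspa1a and Hspa1b summed, in TMM-scaled CPM with exact 95% Poisson intervals from counts; right, the same counts per 100 Hspa8 counts, for the 7 libraries (open points, with ibuprofen). The libraries with ibuprofen lie at 2.68 to 3.92 CPM and those without, Non included, at 4.43 to 12.1 CPM.

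The log2 difference with ibuprofen in FV, RP and TV was -1.49, -0.52 and -1.57 for Hspa1a and -1.63, -0.42 and -1.65 for Hspa1b. Both were lower in 3 of 3 routes on TMM, DESeq2, library-total and TPM scales, and with erythroid genes left out. Relative to the median of all genes on the TPM scale, with 1 TPM added, the RP values of both turned slightly positive. At levels this low the added 1 TPM shrinks differences. The deposited TPM in RP were 0.727 without and 0.369 with ibuprofen for Hspa1a, and 0.987 and 0.539 for Hspa1b. In the fit over routes, the log2 difference was -1.24 for Hspa1a (SE 0.286) and -1.27 for Hspa1b (SE 0.31). By edgeR's quasi-likelihood test over 11774 genes, both had an adjusted p of 0.374 and did not pass. For the sum of the pair the log2 difference was -1.25 (SE 0.278, adjusted p = 0.375, edgeR).

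At 10 CPM, the lower limit set for comparing single libraries, neither gene could be counted. With a limit of 1 CPM, chosen after the values were seen, TV with ibuprofen was 3.02-fold lower than TV without it for Hspa1a (95% counting interval 2.31 to 3.98) and 3.16-fold lower for Hspa1b. In FV the genes were 2.85-fold and 3.14-fold lower with ibuprofen. In RP they were 1.45-fold lower (interval 1.08 to 1.97) and 1.34-fold lower (interval 1.05 to 1.73), under the 2-fold limit. Scaling moved these values. On library totals the log2 difference with ibuprofen was -1.32 for Hspa1a and -1.46 for Hspa1b in FV, and -0.94 and -1.01 in TV, which put Hspa1a in TV under 2-fold. On the TPM scale, with 1 TPM added before the log, it was -0.57 and -0.70 in FV and -0.32 and -0.39 in TV. At levels this low the added 1 TPM shrinks differences, so these values do not give the fold in TPM. The deposited TPM of Hspa1a were 1.3 without and 0.551 with ibuprofen in FV, and 0.788 and 0.431 in TV. Those of Hspa1b were 1.65 and 0.637 in FV, and 0.988 and 0.513 in TV. Genes at least 2-fold lower with ibuprofen at that limit made up 6.59% of those compared in TV, 1.79% in FV and 1.32% in RP.

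Without ibuprofen, collected libraries lay on both sides of Non for this pair. In CPM, Hspa1a was 1.7-fold of its Non level in TV, 1.12-fold in FV and 0.593-fold in RP. The TV direction depended on scale. On library totals the log2 difference of TV from Non was -0.253 for Hspa1a and -0.226 for Hspa1b, where the median of all genes was -1.018. On the TPM scale, with 1 TPM added, it was -0.208 and -0.215, where that median was -0.931. In the fit, collection without ibuprofen differed from Non by a log2 of 0.08 for Hspa1a (SE 0.387) and 0.17 for Hspa1b (SE 0.421), less than their standard errors. Leaving out TV without ibuprofen turned these to -0.12 and -0.06. TV was higher than RP for Hspa1a by a log2 of 1.01 (SE 0.35, adjusted p = 0.381, edgeR), where 9.29% of genes were higher at an unadjusted p under 0.05.

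Other measures moved with the ibuprofen libraries. Of 18 immediate-early genes, which blood cells switch on within minutes of a stimulus, 17 had a negative log2 difference (13 on library totals, with 17 below the median of all genes) and 9 reached an unadjusted p under 0.05. The summed level of that list was 0.816 to 1.03 of Non with ibuprofen and 1.21 to 1.52 of Non without it. T cell markers were higher with ibuprofen in 15 of 15 genes and classical monocyte markers lower in 12 of 12 (11 on library totals). Their summed levels overlapped between the groups, at 764 to 1150 CPM with ibuprofen against 462 to 788 without for T cells, and at 2180 to 6220 against 3080 to 8120 for monocytes. In the fit over routes, platelet markers were lower with ibuprofen in 15 of 15 genes (median log2 difference -0.58), B cell markers higher in 13 of 13 (median 0.40) and neutrophil markers lower in 10 of 13 (median -0.74). For each of these lists 1 route went the other way. In FV 14 of 15 platelet markers were higher (median 0.69). In RP 8 of 13 B cell markers were lower (median -0.04), and 6 of the 8 neutrophil markers at 10 CPM or more were higher (median 0.33). The part of all these markers in the Hspa1a and Hspa1b result was not tested.

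Over all 10 members, 9 had a negative log2 difference with ibuprofen (7 on library totals, where 9 lay below the shifted median of all genes, 0.178) and 5 were lower at an unadjusted p under 0.05, Hspa1a, Hspa1b, Hspa5, Hsph1 and Hsp90aa1. Over all 11774 genes tested, 5.89% were lower at that level and 0% passed the adjusted threshold. The members' median log2 difference was -0.31, beside -0.004 for all genes. The number of members under an unadjusted 0.05 was not stable. In edgeR it was 2 on library totals, 3 with no route term and 2 to 4 with 1 library left out. DESeq2 gave 5 such members and no adjusted call, with 0.0546 as the smallest adjusted p of a member. Limma-voom made no call either, with a smallest adjusted p of 0.375. In CPM, Hspa1a, Hspa1b and Hspa5 were the 3 members whose libraries with ibuprofen all lay below the 3 collected without it. Of all genes tested, 2.68% did so, and Hspa1a and Hspa1b share reads. In deposited TPM, Hspa5 did not separate. TV without ibuprofen stood at 28.9 TPM, below TV with it at 33.6 TPM.

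**Figure D3:**
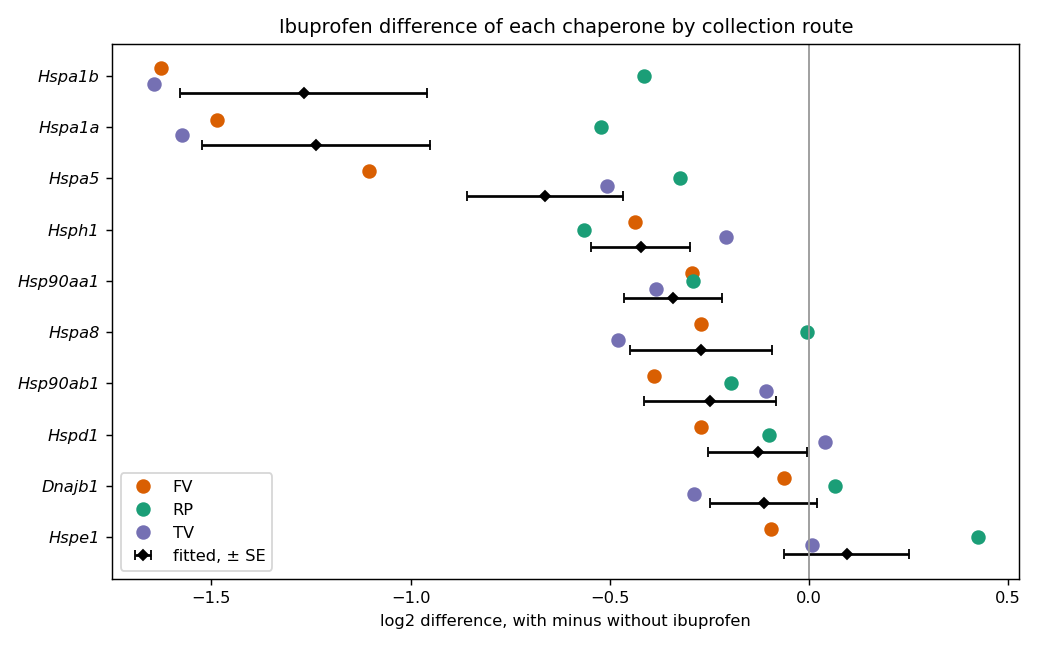
Log2 difference with minus without ibuprofen (horizontal axis) for each member, by route (colored points, 1 pair of libraries each) and from the fit over the 3 routes (black diamonds, with the standard error). Hspa1a and Hspa1b lie farthest to the left, and Hspe1 is the member with a positive fitted value, 0.095; on library-total and TPM scales the TV points of all members but Hspa1a and Hspa1b turn positive or stay so.

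Hspa8 (gene ID 15481, chr9:40801276-40805202, plus strand) encodes the constitutive cytosolic HSP70, HSC70, which also strips clathrin from vesicles. It stood at 355 CPM in Non, at 453, 308 and 461 CPM in FV, RP and TV without ibuprofen, and at 375, 306 and 331 CPM with it. In CPM, FV and TV without ibuprofen were the highest, and the RP libraries were alike. In deposited TPM, TV without ibuprofen was instead the lowest, at 90.2 TPM. RP stood at 160 TPM without and 117 TPM with ibuprofen. With ibuprofen the log2 difference was -0.27 (SE 0.179, adjusted p = 0.615, edgeR). Processed copies complicate this gene, since 31.6% of its stretches of 100 bases occur elsewhere in the annotation. Its pseudogene Gm15459 alone held 9268 to 15230 counts. That was 37.3% to 38.7% of the counts of the 2 genes together in every library, and the log2 difference of Gm15459 with ibuprofen was -0.27 as well.

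Hsph1 (gene ID 15505, chr5:149616843-149636498, minus strand) encodes HSP110, which resets HSP70 by exchanging its nucleotide. One of its 2 RefSeq promoter windows, chr5:149636266-149636565 on the minus strand, is shown because it holds a heat shock element in capitals. The element has 3 units (TTC, GAA and TTC, with 2 bases between neighbors) and begins 16 bases after the start that this window is set on. A second stretch in capitals, 54 bases before that start, has 2 units, TTCNNGAA. From the start of the other window the same stretches lie 37 bases after and 33 bases before. The gene coordinates given above begin upstream of both stretches.

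Hsph1: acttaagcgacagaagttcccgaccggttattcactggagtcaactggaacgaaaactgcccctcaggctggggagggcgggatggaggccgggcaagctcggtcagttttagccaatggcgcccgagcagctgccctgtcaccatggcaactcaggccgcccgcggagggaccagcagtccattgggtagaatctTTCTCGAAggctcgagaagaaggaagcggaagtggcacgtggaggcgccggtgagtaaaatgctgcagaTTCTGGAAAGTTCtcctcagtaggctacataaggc

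The 3-unit form, on either strand, was found in 0.603% of promoter windows, and the 2-unit forms it contains, GAANNTTC and TTCNNGAA, in 7.86% and 8.52%. Hsph1 stood at 45 CPM in Non, at 28.2, 46.6 and 47.5 CPM in FV, RP and TV without ibuprofen, and at 20.8, 31.5 and 41 CPM with it. In CPM, both FV libraries were below the other 5. In deposited TPM, TV without ibuprofen was the lowest library, at 5.65 TPM. FV with ibuprofen was 2.16-fold below Non (95% counting interval 2.02 to 2.31), in a pair where 5.54% of genes were at least 2-fold apart and 0.356% at least 2-fold lower; of the 8 members at 10 CPM or more, Hsph1 alone was 2-fold from Non there. On library-total and TPM scales it remained lower but under 2-fold.

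Between routes, Hsph1 was higher in TV than in FV by a log2 of 0.91 (SE 0.153, adjusted p = 0.294, edgeR) and lower in FV than in RP by 0.67 (log2 difference -0.67, SE 0.152, adjusted p = 0.108, edgeR). DESeq2 called both differences, with adjusted p = 0.00483 and 0.0345, in comparisons where it called 2.52% and 9.2% of all genes. With ibuprofen its log2 difference was -0.44, -0.56 and -0.21 in FV, RP and TV, and -0.42 in the fit (SE 0.124, adjusted p = 0.396, edgeR); the TV value was positive on library-total and TPM scales.

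Dnajb1 (gene ID 81489, chr8:83608175-83612653, plus strand) encodes HSP40, the J protein that delivers clients to HSP70. It stood at 25.8 CPM in Non, at 19.2, 21.4 and 31.1 CPM in FV, RP and TV without ibuprofen, and at 18.4, 22.4 and 25.4 CPM with it. In CPM, the FV libraries were the lowest and TV without ibuprofen the highest. In deposited TPM, TV without ibuprofen was instead the lowest, at 4.24 TPM. With ibuprofen the log2 difference was -0.11 (SE 0.134, adjusted p = 0.771, edgeR), less than its standard error. Neither of its 2 promoter windows held the letters of a heat shock element.

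Hsp90aa1 (gene ID 15519, chr12:110691036-110696395, minus strand) encodes the inducible form of cytosolic HSP90, and Hsp90ab1 (gene ID 15516, chr17:45567778-45573261, minus strand) the constitutive form. Hsp90aa1 stood at 103 CPM in Non, at 84.5, 101 and 121 CPM in FV, RP and TV without ibuprofen, and at 68.9, 82.7 and 93 CPM with it. Hsp90ab1 stood at 459 CPM in Non, at 374, 424 and 522 CPM without ibuprofen, and at 286, 370 and 485 CPM with it. In CPM, both were highest in TV without ibuprofen and lowest in FV with ibuprofen, and the ranges with and without ibuprofen overlapped. In deposited TPM, TV without ibuprofen was instead the lowest library, at 17.5 TPM for Hsp90aa1 and 85.7 TPM for Hsp90ab1.

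The ratio of Hsp90aa1 to Hsp90ab1 counts lay between 0.192 and 0.241, with its lowest value in TV with ibuprofen. For Hsp90aa1 the log2 difference with ibuprofen was -0.29, -0.29 and -0.38 by route, the narrowest range of any member, and -0.34 in the fit (SE 0.123, adjusted p = 0.438, edgeR). On library-total and TPM scales the TV value was positive. For Hsp90ab1 it was -0.25 in the fit (SE 0.165, adjusted p = 0.615, edgeR). Of the stretches of 100 bases in the Hsp90aa1 transcript, 47.5% occur in another gene, mainly Gm12346, which held 336 to 665 counts against 3973 to 7937 for Hsp90aa1. Hsp90ab1 had 0.

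TV exceeded FV for 4 members at an unadjusted p under 0.05, Hsph1, Dnajb1 (log2 0.62, SE 0.164), Hsp90ab1 (0.66, SE 0.203) and Hsp90aa1 (0.52, SE 0.151), while 5.28% of all genes were higher at that level and 0% passed the adjusted threshold. The adjusted p of these 4 by edgeR ran from 0.294 to 0.368. Leaving out FV without ibuprofen left 1 member under an unadjusted 0.05 in either direction, and leaving out TV without ibuprofen left 2. On library totals the median of all genes moved to -0.896; Hsph1 stayed positive at 0.06, the other 3 turned negative (-0.36 to -0.20), and all 4 stayed above that median. Relative to the median of all genes, on TMM and library totals alike, B cell markers were higher in TV than in FV in 13 of 13 genes and erythroid markers in 14 of 14, and all tested neutrophil markers (13 on TMM) were lower; their part in these values was not tested. FV against RP gave 1 member lower at that level, Hsph1, with 9.50% of all genes.

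Hspa5 (gene ID 14828, chr2:34772090-34776529, plus strand) encodes BiP, the HSP70 of the ER, which also holds the stress sensors of the unfolded protein response in check. Its promoter, chr2:34771840-34772139 on the plus strand, is shown because its motif differs from the heat shock elements found for Hspa1a, Hspa1b and Hsph1. The capitals mark an ER stress element (CCAAT and CCACG with 9 bases between), 65 bases before the start of transcription.

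Hspa5: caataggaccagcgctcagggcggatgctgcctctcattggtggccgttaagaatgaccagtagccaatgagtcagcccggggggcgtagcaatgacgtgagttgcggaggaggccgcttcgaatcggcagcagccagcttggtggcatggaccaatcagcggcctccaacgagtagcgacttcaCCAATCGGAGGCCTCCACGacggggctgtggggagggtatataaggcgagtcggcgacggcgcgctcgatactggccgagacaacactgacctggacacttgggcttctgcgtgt

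This element, on either strand, was found in 0.119% of promoter windows, and CCAAT, which it contains, in 37.4%. No 2-unit heat shock element was found in the window. Hspa5 stood at 140 CPM in Non, at 308, 159 and 180 CPM in FV, RP and TV without ibuprofen, and at 143, 127 and 127 CPM with it. FV without ibuprofen was far above the rest, and the libraries with ibuprofen were close to Non in CPM.

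FV without ibuprofen was 2.21-fold above Non for Hspa5 (95% counting interval 2.15 to 2.27), in a pair where 7.68% of genes were at least 2-fold apart and 6.01% at least 2-fold higher. FV with ibuprofen was 2.15-fold below FV without it (interval 2.1 to 2.21), where 1.89% of genes were at least 2-fold apart and 1.38% lower; on library-total and TPM scales it was lower but under 2-fold. In both pairs it was the sole member past 2-fold of the 8 at 10 CPM or more. The counts of Hspa5 were 0.68 of those of Hspa8 in FV without ibuprofen and 0.382 to 0.517 of them in the other 6 libraries. With ibuprofen the log2 difference was -1.11, -0.33 and -0.51 in FV, RP and TV and -0.66 in the fit (SE 0.196, adjusted p = 0.396, edgeR), and the TV value was positive on library-total and TPM scales. Collection without ibuprofen was above Non by a log2 of 0.58 (SE 0.284, adjusted p = 0.623, edgeR), in a comparison where 0 of 10 members reached an unadjusted p under 0.05 and 7.68% of all genes did.

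Most other ER genes were also higher in FV without ibuprofen. Of 20 genes on a list of ER chaperones and unfolded protein response genes, 18 had enough counts in FV without ibuprofen and Non, and all 18 were higher in FV, 5 of them at least 2-fold, with a median log2 difference of 0.78. Hsp90b1, the HSP90 of the ER, stood at 287 CPM there against 175 CPM in Non and 150 to 189 CPM elsewhere. Calr, a calcium-binding lectin chaperone, stood at 296 CPM against 149 CPM in Non and 139 to 178 CPM elsewhere. Pdia3, a disulfide isomerase, stood at 234 CPM against 116 CPM in Non and 106 to 137 CPM elsewhere.

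With ibuprofen, 19 of 19 tested genes of the ER list had a negative log2 difference, with a median of -0.33 beside -0.004 for all genes, and 4 of them reached an unadjusted p under 0.05: Sdf2l1, Sel1l, Xbp1 and Manf. No gene of the list passed the adjusted threshold, and the smallest adjusted p was 0.388 (edgeR). In FV, 18 of 18 were lower with ibuprofen, by a median log2 of -0.67; the medians in RP and TV were -0.15 and -0.16, in 15 of 16 genes each. Against Non, 19 of 19 had a positive log2 difference with collection in the fit, which averages the 3 routes, with a median of 0.30 beside 0 for all genes. The routes were uneven. Without ibuprofen the median against Non was 0.78 in FV (18 of 18 genes positive), 0.01 in RP (9 of 16) and 0.20 in TV (13 of 16). On library totals 13 fitted values were positive, and all 19 lay above the median of all genes, -0.267.

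**Figure D4:**
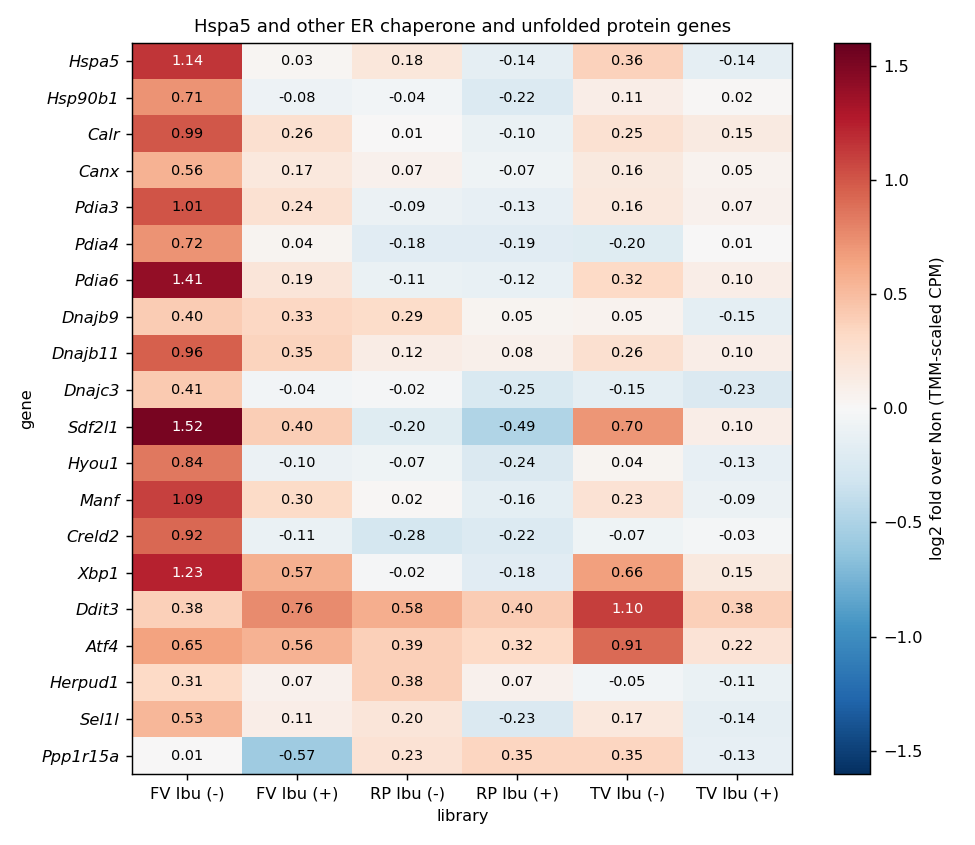
Log2 fold over Non (color and printed value, TMM-scaled CPM) of Hspa5 and other genes of the ER list in each collected library. FV without ibuprofen is the darkest column, from 0.01 for Ppp1r15a to 1.52 for Sdf2l1.

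Markers of other cells differed in the same library. In FV without ibuprofen the summed level of 15 neutrophil markers was 5.21 times that in Non, of 12 classical monocyte markers 2.5 times and of 15 platelet markers 2.34 times. B cell markers stood at 0.396 and T cell markers at 0.564 of Non. A plasma cell list of 10 genes, chosen after values were seen, stood at 1.52 of Non. FV with ibuprofen had 2.02 times the neutrophil, 1.91 times the monocyte and 3.33 times the platelet level of Non. Its B cell markers stood at 0.642, its T cell markers at 0.792 and its plasma cell list at 1.09 of Non, with Hspa5 at 1.03-fold of Non. The part of these cells in the ER result was not tested.

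Hspd1 (gene ID 15510, chr1:55077833-55088243, minus strand) encodes HSP60, the folding chamber of the mitochondrial matrix, and Hspe1 (gene ID 15528, chr1:55088148-55091317, plus strand) encodes HSP10, its lid. The genes lie head to head and overlap by 96 bases, and no source used here says whether strand was used in counting. The promoter window of Hspe1, chr1:55087898-55088197 on the plus strand, is shown. Of its 300 bases, 285 are also in 1 of the 2 windows of Hspd1 and 4 are in the other. That other window is set on the Hspd1 start given above, and no heat shock element was found in it. The capitals mark a run of heat shock units, TTCNNGAA, GAANNTTC and TTCNNGAA overlapping, that begins 89 bases before the start of Hspe1.

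Hspe1: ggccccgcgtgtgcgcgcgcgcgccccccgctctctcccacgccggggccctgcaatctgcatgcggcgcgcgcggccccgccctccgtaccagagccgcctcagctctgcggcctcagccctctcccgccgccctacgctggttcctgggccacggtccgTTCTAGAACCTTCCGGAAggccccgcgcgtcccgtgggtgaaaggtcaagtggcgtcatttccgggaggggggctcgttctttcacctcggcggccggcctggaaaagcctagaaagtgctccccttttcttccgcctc

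The 3-unit form, which this window holds, was found in 0.603% of promoters. In CPM, Hspd1 and Hspe1 varied less than any other member. This order did not hold in deposited TPM. There Hspd1 ran from 6.41 to 17.7 TPM and Hspe1 from 6.71 to 20.3, while Dnajb1 ran from 4.24 to 8.08. Hspd1 stood at 37.9 CPM in Non, at 37.2, 38.3 and 37.1 CPM in FV, RP and TV without ibuprofen, and at 30.8, 35.8 and 38.1 CPM with it. In CPM, 1 library, FV with ibuprofen, was below the other 6. Of all 100-base stretches of the Hspd1 transcript, 26.9% also occur in another gene, mainly the copy Hspd1-ps3, which had 12 to 40 counts a library. Hspe1 stood at 13.3 CPM in Non, at 13.4, 11.5 and 12.6 CPM without ibuprofen, and at 12.5, 15.5 and 12.6 CPM with it, and its highest and lowest libraries were both from RP.

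With ibuprofen the log2 difference was -0.13 for Hspd1 (SE 0.124, adjusted p = 0.722, edgeR) and 0.10 for Hspe1 (SE 0.157, adjusted p = 0.838, edgeR). Both lie within about their standard errors. The ratio of Hspd1 to Hspe1 counts ran from 2.31 in RP with ibuprofen to 3.33 in RP without it. Of 12 other mitochondrial chaperones and proteases, 10 had a positive log2 difference with ibuprofen (median 0.08) and 0 reached an unadjusted p under 0.05. Hspa9, the mitochondrial HSP70, had 0.23 (SE 0.147, adjusted p = 0.602, edgeR), and Yme1l1 and Hscb had 0.02 and -0.15.

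**Figure D5:**
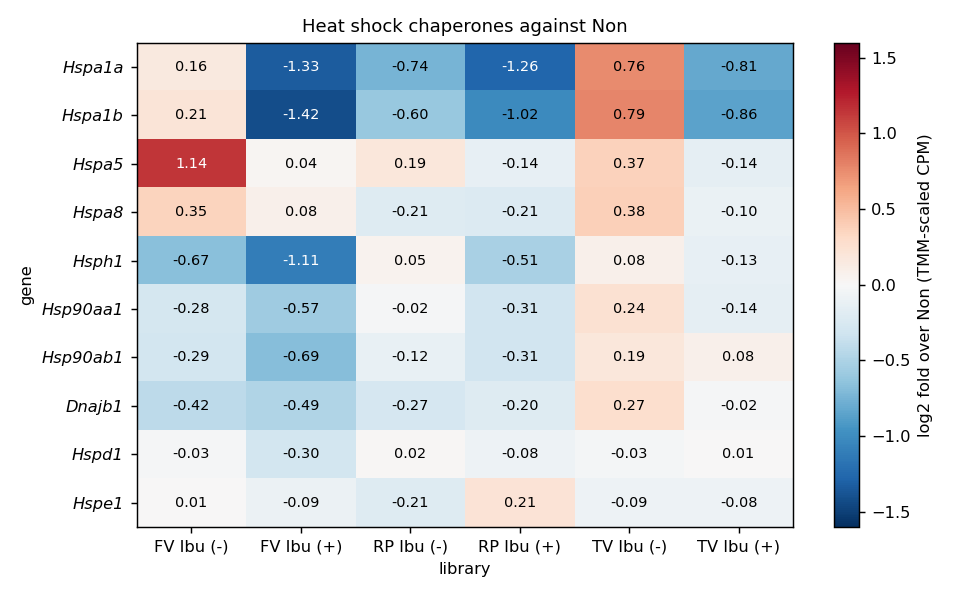
Log2 fold over Non (color and printed value, TMM-scaled CPM) of each member in the 6 collected libraries, all set against the same Non library. Hspa1a and Hspa1b are below 0 in the 3 columns with ibuprofen (-0.81 to -1.42) and Hspa5 is highest in FV without ibuprofen (1.14).

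All comparisons with Non share that 1 library. Among the 8 members at 10 CPM or more, Hspa5 in FV without ibuprofen and Hsph1 in FV with ibuprofen were 2-fold from it, and no member was in the RP and TV libraries. Genes at least 2-fold from Non made up 0.413% and 0.331% in RP without and with ibuprofen, 10.8% in TV without and 0.529% in TV with it. Of the 15 pairs of libraries compared, 3 had a member at least 2-fold apart, and FV without ibuprofen or FV with ibuprofen was in each. In the pairs without one, genes at least 2-fold apart made up 0.893% for ibuprofen in RP and 7.20% in TV, 6.70%, 11.6% and 6.85% for TV against FV, TV against RP and FV against RP without ibuprofen, and 4.48%, 1.21% and 8.87% for the same routes with it.

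The factors and partners of these chaperones were measured too. Hsf1, the factor that induces heat shock genes, stood at 18.2 CPM in Non and 12.7 to 20.6 CPM elsewhere, with a log2 difference of 0.22 with ibuprofen (SE 0.143, adjusted p = 0.612, edgeR). Hsf2, a related factor, had -0.38 (SE 0.175, adjusted p = 0.499, edgeR). Among 22 tested HSP70 partners, 1 was higher and 2 lower at an unadjusted p under 0.05, with a median of 0.04. Hspa4l, a relative of Hsph1, had -0.48 (SE 0.127), Stip1, which links HSP70 to HSP90, had -0.36 (SE 0.133), and Hspbp1, an HSP70 exchange factor, had 0.37 (SE 0.146); these 3 were named for that p. None of 12 HSP90 cochaperones reached it, with a median of 0.002. Cdc37, which brings kinases to HSP90, had 0.06 (SE 0.121). Of 14 subunits of the chaperonin TRiC and prefoldin, which fold actin and tubulin, 7 were positive and 7 negative (14 positive on library totals), with a median of -0.001. Of 8 small heat shock proteins, 1 passed the filter on low counts, Hspb6, at 0.764 to 1.55 CPM. The log2 difference with ibuprofen was -0.11 for Dnajb6, -0.02 for Bag1 and -0.08 for Bag6, the 3 highest HSP70 partners. It was -0.29 for Ahsa1 and -0.10 for Ptges3 among the HSP90 cochaperones, and -0.18 for Hsbp1, which binds Hsf1. For the chaperonin subunits Cct7, Cct2 and Cct5 it was -0.10, -0.01 and 0.06.

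Across the 7 libraries, Pearson correlations of log2 CPM between members are given as a description, since the points share 1 set of libraries and depths. Of 45 pairs, 15 were above 0.7 and 14 below 0. Hspa1a and Hspa1b had the highest, 0.99, from genes that share reads. Hsph1, Hsp90aa1, Hsp90ab1 and Dnajb1 formed a group with 0.796 to 0.935 between them. Hspa5 with Hspa8 gave 0.74. Hspe1 was negative with all 9 others, between -0.291 and -0.032.

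The gene most like a member in pattern was found by the same correlation among 5906 genes. For Hsph1 (0.987) and for Hsp90aa1 (0.963) it was Chordc1, also on the HSP90 cochaperone list, which stood at 27.2 CPM in Non and lowest, at 19.9 CPM, in FV with ibuprofen. For Hspd1 it was Stip1 (0.932), for Hspa5 Slc27a4 (0.995), a fatty acid transporter, and for Hspa8 Plod3 (0.97), a collagen-modifying enzyme. For both Hspa1a and Hspa1b it was Lman2l, at 0.94 and 0.959. For Dnajb1 it was Lockd (0.988), for Hsp90ab1 Ddb1 (0.94) and for Hspe1 Slfn1 (0.923). The 6 genes most like the mean of the 10 members were Cdk8 and Eif3j1, both at 0.94, Lman2l (0.939), Arap3 (0.892), Dnaja1 (0.89), another J protein, and Kdm5c (0.885).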

How the data were processed

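Stranded mRNA libraries were made from column-purified RNA, per the labels' protocols. The submitters' processing notes name Trimmomatic 0.38, HISAT2 2.1.0 and build mm10, with no roles; no source used here names the counting program or its use of strand. The deposited read counts are whole, unnormalized numbers per gene, per the file headers. The TPM and FPKM values were deposited by the authors too; TPM served for levels between genes and as an alternative scale, and FPKM was not tested.

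Counts were scaled by TMM and tested with edgeR 4.0.16 (quasi-likelihood) in R 4.3.3. Genes had a mean of at least 1 CPM, and p-values were adjusted by Benjamini-Hochberg over all of them, with a threshold of 0.05. The standard error is the log2 difference over the square root of F. Ibuprofen and routes were additive terms in the 6 collected libraries; for collection against Non all 7 entered, Non was fitted exactly and was assumed to vary like the others. Pairs of libraries used log2 CPM with a prior count of 2 and 10 CPM as the lowest mean, with counting intervals at 95%. Alternatives used DESeq2 1.42.0 and limma 3.58.1. The script was tested on simulated data. Promoters came from RefSeq (7 of 10 members; Hspa8, Hsp90aa1 and Hsp90ab1 were not matched), coordinates from its GRCm38.p6 gene table (45679 IDs matched), and shared stretches from GENCODE transcripts. Named were all members, the 3 highest genes of each chaperone list, and the most alike genes, while markers and immediate-early genes, which the rule also covers, are given by list; Sdf2l1, Sel1l, Xbp1, Manf, Ppp1r15a, Hspa4l, Stip1, Hspbp1, Fkbp5, Hspa8's copies and Gm12346 were chosen after their values were seen. Members and lists were chosen with earlier results of these data known.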

Additional observations from a re-analysis of the deposited data

Results flagged for a closer look

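For 3 members the sign of the ibuprofen difference was not the same in all routes; with 1 library a group the difference between routes was not tested. The log2 difference of Dnajb1 was -0.064 in FV, 0.064 in RP and -0.288 in TV. For Hspd1 it was -0.272 in FV, -0.1 in RP and 0.04 in TV. For Hspe1 it was -0.096 in FV, 0.424 in RP and 0.008 in TV. The RP value of Hspe1 rests on 902 counts without ibuprofen and 787 with it, and on the TPM scale it was -0.017, where the median of all genes was -0.414.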

How the results depend on the processing

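No member was called by edgeR under any scaling, filter or left-out library tried; leaving out each collected library gave 0 to 0 members called in each of the 5 tested comparisons. DESeq2 called 1 member, Hsph1, in TV against FV and 1, Hsph1, in FV against RP, where it called 2.52% and 9.2% of all genes. The direction of Hspa1a, Hspa1b, Hspa5, Hspa8, Hsph1, Hsp90aa1 and Hsp90ab1 with ibuprofen was kept in every fit. On library totals the fitted ibuprofen log2 difference turned to 0.07 for Dnajb1 and 0.054 for Hspd1. With a library left out, that of Hspe1 ran from -0.099 to 0.203. The log2 differences from Non of Hspa5, Hsph1, Hsp90ab1 and Dnajb1 kept their sign in every fit; those of the other 6 did not. On library totals they were -0.215 for Hspa1a, -0.137 for Hspa1b and -0.1 for Hspa8; with DESeq2 size factors 0.005 for Hsp90aa1 and 0.011 for Hspd1; with erythroid genes left out 0.006 and 0.012. With a library left out they ran from -0.122 to 0.422 for Hspa1a, -0.06 to 0.568 for Hspa1b, -0.053 to 0.022 for Hsp90aa1, -0.089 to 0.058 for Hspd1 and -0.195 to 0.083 for Hspe1. With all 6 collected libraries set against Non, the difference was -0.329 for Hspa1a and -0.274 for Hspa1b (collected minus Non), and with routes as replicates in 4 libraries Hsp90aa1 gave 0.005. The cause was not tested.

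Counts of members 2-fold apart between single libraries changed with the limit; the share of all genes past it follows each. At 1.5-fold they were 2 (22.7%) for FV without ibuprofen against Non, 2 (15.6%) for FV with ibuprofen against Non, 3 (16.7%) for TV against FV without ibuprofen, 2 (21.6%) for FV against RP without it, 2 (16.4%) for TV against FV with it and 1 (23.4%) for FV against RP with it. On deposited TPM they were 0 (16.1%) for FV with ibuprofen against Non, 0 (3.18%) for ibuprofen in FV, 3 (43.8%) for TV without ibuprofen against Non, 4 (68%) and 6 (57.4%) for TV against FV and RP without it, and 2 (46.1%) for TV against FV with it. On library totals they were 0 (8.33%), 0 (2.2%), 2 (53.4%), 4 (67.2%) and 3 (64.5%) for the first 5 of these. With DESeq2 size factors TV against FV with ibuprofen gave 1 (4.38%). With erythroid genes left out, ibuprofen in TV (7.31%), TV against RP without ibuprofen (10.8%) and TV against FV with it (4.29%) gave 1 each. With 1 CPM as the lowest mean, chosen after seeing the data, they were 3 (6.95%) for FV with ibuprofen against Non, 2 (1.42%) for RP with it against Non, 3 (3.27%) for ibuprofen in FV, 2 (9.87%) for ibuprofen in TV and 2 (13%) for TV against RP without it.

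Library totals and TPM shift the median of all genes, by a log2 of -1.018 and -0.931 in TV without ibuprofen against Non, and by 0.607 and 0.519 for ibuprofen in TV. Of 30 ibuprofen values of members by route, 9 changed sign on library totals and 12 on TPM. Relative to that median 0 and 4 did. The 4 include the RP values of Hspa1a and Hspa1b, which the 1 TPM added before the log shrinks. No paired analysis was possible because each group has 1 library and the labels give no replicate numbers; route is a term in the ibuprofen fit. With 1 library a group, depth limits Hspa1a and Hspa1b most.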

Other observations

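Fkbp5, an HSP90 cochaperone that glucocorticoid hormones induce, was named after its values were seen. It stood at 11.5 CPM in Non, at 51.6, 9.13 and 10.3 CPM in FV, RP and TV without ibuprofen, and at 19.1, 7.48 and 12.8 CPM with it. Like Hspa5, it was highest in FV without ibuprofen. FV exceeded RP by a log2 of 1.99 (SE 0.409, adjusted p = 0.0955, edgeR). Bag1, an HSP70 exchange factor, differed in the other direction, at 58.5 and 57.9 CPM in FV without and with ibuprofen and at 134 and 111 CPM in TV. TV exceeded FV by a log2 of 1.11 (SE 0.195, adjusted p = 0.294, edgeR). Hscb, a mitochondrial J protein of iron-sulfur cluster assembly, exceeded FV in TV by 1.35 (SE 0.271, adjusted p = 0.294, edgeR). Erythroid markers summed to 2.46 times Non in TV without ibuprofen and 0.874 times in FV without it, and their part in these values was not tested.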
